A study of Mus musculus with 13 samples.

Results

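The 8 genes described here are 6 ligands of the bone morphogenetic protein (BMP) family, Bmp2, Bmp4, Bmp5, Bmp6, Bmp7 and Bmp10, and 2 of their receptors, Bmpr1a (type I) and Bmpr2 (type II). They were chosen by symbol, and all 8 stand among the 27998 genes of each of the 10 matrices. The matrices came from droplet-based single-cell RNA sequencing of wild-type C57Bl/6J mice without any treatment. Embryos of embryonic day (E) 8.5 and E10.5 were used after removal of head and limbs, and from E12.5 through E14.5 and E16.5 to the third day after birth (P3) the heart alone was taken. There were 2 libraries each at E10.5, E12.5, E14.5 and E16.5, called replicates 1 and 2 here after the names in brackets in the sample titles. The titles themselves give both libraries of a stage the same replicate number. At E8.5, 1 library was analysed here, and the P3 matrix pools its samples, so neither stage entered a test.

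BMPs are secreted dimers that bring type I and type II receptor kinases together, after which the type I receptor phosphorylates Smad1, Smad5 and Smad9, which enter the nucleus with Smad4 and switch on targets such as the Id genes. In the embryonic heart they are known for specifying cardiac mesoderm, for patterning the atrioventricular canal and starting cushion formation (Bmp2, Bmp4), and for ventricular trabeculation and growth (Bmp10). Bmp5, Bmp6 and Bmp7 form a closely related subgroup of the family, and Bmp10 is bound with high affinity by the endothelial type I receptor Acvrl1.

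The sequences around the start of Bmp10 and Bmp4 are shown because both ligands changed between chambers and stages in the tests below. A window was available for both. Each runs from 250 bases before to 50 bases after the start of the gene (RefSeq, GRCm38.p6), 5′ to 3′ on the gene's strand. In the Bmp10 window (chr6:87428744-87429043, plus strand, 53.0% G or C) the capitals mark AGATAA, the letters of the core that GATA factors bind. In the Bmp4 window (chr14:46390620-46390919, minus strand, 64.0% G or C) they mark CANNTG, the E-box.
Bmp10: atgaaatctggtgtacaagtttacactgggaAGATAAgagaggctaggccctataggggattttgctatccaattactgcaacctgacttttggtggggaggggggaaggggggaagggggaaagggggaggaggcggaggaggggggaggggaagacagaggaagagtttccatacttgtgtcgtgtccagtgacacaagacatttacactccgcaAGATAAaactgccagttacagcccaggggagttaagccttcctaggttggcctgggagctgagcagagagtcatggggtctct
Bmp4: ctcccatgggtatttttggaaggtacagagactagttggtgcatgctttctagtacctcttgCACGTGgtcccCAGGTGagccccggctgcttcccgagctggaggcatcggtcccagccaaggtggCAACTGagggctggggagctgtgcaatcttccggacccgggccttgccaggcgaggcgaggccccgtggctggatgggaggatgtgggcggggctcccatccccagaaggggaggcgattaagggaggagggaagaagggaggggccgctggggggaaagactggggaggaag

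AGATAA lies at -219 and -33 from the Bmp10 start. Of 32851 windows of the same length, 11.2% hold it at least once and 1.15% at least 2 times, searched on both strands. The 3 E-boxes of the Bmp4 window lie at -188, -177 and -123, and 72.3% of all windows hold at least 1 and 39.6% at least 2. Windows were found for 6 of the 8 genes, not for Bmp2 and Bmp7. The genes lie on chromosomes 2 (Bmp2, 133552159 to 133562885, and Bmp7, 172868012 to 172940321), 14 (Bmp4, 46383520 to 46390669, and Bmpr1a, 34410734 to 34503341), 9 (Bmp5, 75775364 to 75900310), 13 (Bmp6, 38345107 to 38500302), 6 (Bmp10, 87428994 to 87437677) and 1 (Bmpr2, 59763400 to 59879014) of GRCm38, all as protein-coding genes.

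Barcodes with at least 2000 unique molecular identifiers (UMIs, each a counted mRNA molecule) were sorted into classes by genes outside the family. Ventricular-gated barcodes held Tnnt2, a sarcomere gene of cardiomyocytes, with Myl2, the ventricular myosin light chain, above a fixed share of Myl7, its atrial counterpart. Atrial-gated barcodes held Tnnt2 with Myl7 and little Myl2. The other classes held Cdh5 (endothelial and endocardial cells), Col1a1 (mesenchyme and fibroblasts) or Upk3b (mesothelium, in the heart the epicardium). A level below is given in CPM, the count of UMIs of a gene in a class of a library scaled to a class total of 1000000 UMIs. Since the reads tag the 3′ end of a transcript and are not a measure per length, levels are compared between samples of 1 gene and not between genes.

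Each library held 4928 to 14675 such barcodes with a median of 10268 to 24516 UMIs. The ventricular gate held 2252 to 3553 barcodes per library from E12.5 to E16.5 and 5856 (P3), the atrial gate 222 to 408 and 1180. At E8.5 and E10.5 both were small, with 36 to 58 ventricular-gated and 78 to 93 atrial-gated barcodes. Of the genes listed as markers, all 6 for cardiomyocytes and all 6 for endothelium were highest in their own class in all 10 matrices. The 6 ventricular markers were so in 5 or 6 cases, with Mpped2 highest outside the ventricular gate in E12.5 replicate 2 and from E14.5 on. The 6 atrial markers were so in 5 or 6 cases from E12.5 on but in 3 at E8.5 and E10.5. Their sum at E10.5 was 7847 and 6646 CPM in the ventricular gate and 8435 and 8154 in the atrial gate. At E8.5 it was higher in the ventricular (8930) than in the atrial gate (7146), against the gate's name, so chamber names at those stages stand for the Myl2 and Myl7 rule. The 6 fibroblast markers led in 3 to 6 cases and the 5 epicardial markers in 3 to 5. Barcodes in no gate made up 91.8% to 92.8% of a library at E8.5 and E10.5. From E12.5 to E16.5 they made up 12.6% to 24.4%, and at P3 9.61%. At E12.5 the Col1a1 gate held 28 and 105 barcodes. The 1291 and 1619 barcodes in no gate then had a fibroblast marker sum of 1302 and 1381 CPM. Values of the Col1a1 gate thus need not stand for all mesenchyme. Pairs of libraries shared 27 to 264 barcodes, against 35.3 to 284.4 for random draws from the barcode list. Erythroid barcodes, which should lack these genes, give the background of stray UMIs within cells and are quoted beside low values. Barcodes with 1 to 100 UMIs, which hold mostly free RNA, give the share of a gene in that RNA, which can be far above its background within cells.

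**Figure D1:**
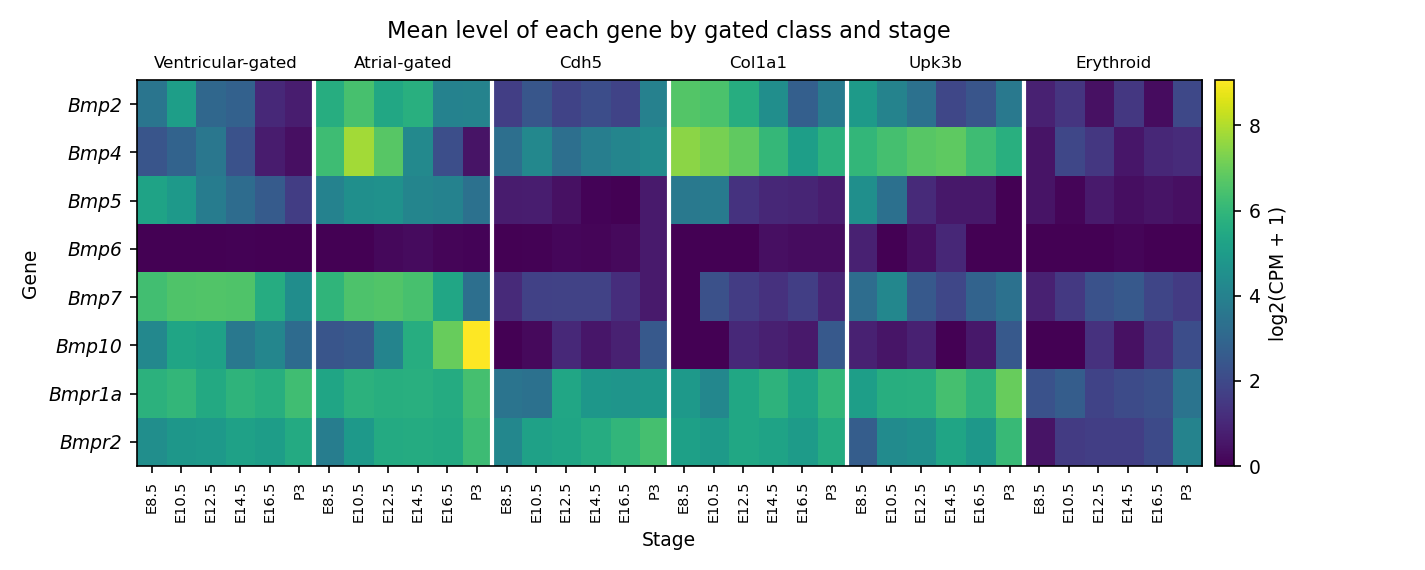
Mean level of each of the 8 genes (rows), as log2(CPM + 1), by gated class (blocks of columns) and stage (columns within a block). Brighter cells are higher levels. Bmp10 is bright in the ventricular gate early and in the atrial gate late, and Bmp7 in both cardiomyocyte gates. Bmp4 is bright in the Col1a1 and Upk3b gates, and Bmp6 is dark, near 0, throughout.

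Bmp10, the ligand known for trabecular growth, went from higher in ventricular-gated to higher in atrial-gated barcodes during heart development. Its ventricular level was 45.1 and 34.2 CPM in replicates 1 and 2 at E10.5, 32.2 and 39.6 (E12.5), 10.7 and 12.2 (E14.5), and 14.99 and 18.9 (E16.5). Its atrial level was 6.61 and 2.93 (E10.5), 17.4 and 15.03 (E12.5), 37.0 and 60.5 (E14.5), and 128.4 and 120.0 (E16.5). Both ventricular libraries were above both atrial ones at E10.5 and E12.5, and below them at E14.5 and E16.5, with no overlap at any of the 4 stages.

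The difference of atrial minus ventricular Bmp10 on the log2 scale was -2.93 at E10.5 (SE 0.54, adjusted p = 0.0014), -1.32 at E12.5 (SE 0.16, adjusted p = 3.18e-07), 1.90 at E14.5 (SE 0.17, adjusted p = 1.14e-09) and 2.75 at E16.5 (SE 0.12, adjusted p = 4.18e-16), the last a 6.74-fold higher atrial level. The change of this difference from E12.5 to E16.5 was itself 4.08 (SE 0.20, adjusted p = 3.61e-14), or 16.9-fold. The E10.5 call rests on few barcodes and was lost without replicate 1 (-3.56, adjusted p = 0.0583), without replicate 2 (-2.66, adjusted p = 0.0661) and with the gate thresholds doubled (-1.63, adjusted p = 0.781), and was -2.17 without barcodes holding Tbx2, Tbx3 or Rspo3 (adjusted p = 0.0251). These p-values measure the spread between the libraries of a stage, which may be technical, and since every stage has its own libraries, stage and preparation cannot be told apart.

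Bmp10 was 1 of 7 members tested at all 4 stages. At E10.5, 1 member was higher in the atrial gate (Bmp4), 1 lower (Bmp10) and 5 did not pass, against 3.33% of all genes called (1.8% higher and 1.53% lower). At E12.5, 4 were higher and 1 lower, with 35.7% of all genes called (16.4% higher and 19.3% lower). At both later stages, 5 were higher and 2 lower, with 30.9% called at E14.5 (14.3% up and 16.6% down) and 33.7% at E16.5 (15.9% up and 17.8% down). The change of the atrial difference from E12.5 to E16.5 passed for 3 members, Bmp10, Bmp2 and Bmp5, with 12.8% of all genes called (7.27% higher and 5.52% lower).

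The stages outside the tests lay on the same sides. In the E8.5 library the ventricular level of Bmp10 was 17.9 (exact 95% Poisson interval 10.4 to 28.7) and the atrial level 4.25 (1.94 to 8.07). At P3 the atrial level was 536 (526 to 547) and the ventricular level 7.91 (7.34 to 8.51), a 67.8-fold ratio in 1 matrix. The intervals cover counting error alone. The P3 barcodes carry 1 of 2 suffixes, and the atrial level was 379 in those with the first suffix and 818 in the others, so the spread inside P3 far exceeds the interval.

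Within the atrial gate, Bmp10 rose from E12.5 to E16.5 by 3.13 (SE 0.16, adjusted p = 4.07e-14), or 8.78-fold, and by 4.08 (adjusted p = 2.28e-14) under the mitochondrial ceilings described below. It was the only one of the 7 members tested that was higher at E16.5, while 4 were lower and 2 did not pass, with 26.6% of all genes called (15.5% higher and 11.1% lower). More barcodes held a UMI at later stages. With each barcode thinned to 2000 UMIs, the share with a Bmp10 UMI was 1.88% and 1.96% (E12.5), 6.50% and 8.56% (E14.5), 10.8% and 13.5% (E16.5) and 43.5% (P3). Unthinned shares were 17.5% and 12.3% at E12.5 and 29.5% and 32.1% at E16.5, with medians of 19066 and 14733 UMIs per barcode at E12.5 and 16974 and 10826 (E16.5). In erythroid barcodes the unthinned share was 0.69% to 2.72% from E12.5 to E16.5, apart from 0% in E14.5 replicate 1, at medians of 11792 to 30514 UMIs.

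Within the ventricular gate, the direction from E12.5 to E16.5 depended on how mitochondrial RNA was handled. With all barcodes Bmp10 fell by 0.94 (SE 0.11, adjusted p = 4.56e-08). With barcodes above the study's mitochondrial ceilings for each stage left out, it rose by 0.41 (adjusted p = 0.00522). The ceilings were 5% at E8.5 and E10.5, 7.5% at E12.5, 10% at E14.5, 15% at E16.5 and 20% at P3. E12.5 and E16.5 were thus cut at unlike levels, and the part of that in the turn was not tested. Under the ceilings, the ventricular level was 12.4 and 12.9 (E12.5) and 14.1 and 17.7 (E16.5). The ceilings kept 76.4% and 73.0% of ventricular barcodes at E12.5 and 79.8% and 78.1% of them at E16.5. They kept 24.9% at P3, where the level went from 7.91 to 15.9. The difference between chambers kept its direction and its call under the ceilings at each stage, with -0.83 at E12.5 (adjusted p = 0.0173), 2.58 at E14.5 and 2.83 (E16.5). Among all members tested, 2 were higher and 5 lower at E16.5 in the ventricular gate, with 63% of all genes called (32.2% higher and 30.8% lower).

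The ventricular level was higher in barcodes with much Nppa, a natriuretic peptide gene that marks trabecular myocardium and the atria. At E12.5 the level of Bmp10 was 94.9 and 132.6 in ventricular-gated barcodes with at least 20 Nppa UMIs per 10000, and 10.6 and 12.4 in those with fewer than 5. At E14.5 it was 71.1 and 100.6 against 3.86 and 4.15, and at E16.5 its mean was 87.1 ± 18.3 (SD, n = 2) against 8.23 and 9.45. All 6 libraries were higher in the high-Nppa barcodes, without overlap. The mean log2 difference over the 3 stages was 3.604 (SE 0.09, adjusted p = 1.93e-18), a 12.2-fold ratio, and 3.66 under the mitochondrial ceilings. The ceilings kept 58.8% and 54.3% of the high-Nppa barcodes at E12.5. The high-Nppa level was then 42.2 and 49.5 (E12.5), 35.5 and 57.5 (E14.5) and 65.05 and 96.2 (E16.5). Both E16.5 libraries were thus above both E12.5 ones under the ceilings, which differ between these stages. That was not so with all barcodes.

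The high-Nppa barcodes made up 21.4% and 19.2% of the ventricular gate at E12.5 and 6.36% and 6.98% at E16.5. At P3 the level was 20.8 (18.7 to 23.0) in high-Nppa and 4.60 in low-Nppa barcodes, and the suffixes differed, with 15.5 and 87.8 in the high-Nppa barcodes. Of 7 members tested in this contrast, 2 were higher (Bmp10 and Bmp7), 3 lower (Bmp2, Bmp4 and Bmp5) and 2 did not pass, with 33.2% of all genes called (14.6% higher and 18.5% lower). The Bmp2 call (-1.02, adjusted p = 0.00461) was lost with the gate thresholds doubled (-0.66, adjusted p = 0.0902). Bmp2 was higher with high Nppa in 1 of the 6 libraries, E16.5 replicate 1 (1.70 against 1.01), and at P3 (0.81 against 0.45). Bmp4 (-1.56, adjusted p = 0.000496) was lower with high Nppa at E12.5 (3.72 and 1.45 against 16.9 and 12.6) but higher in E16.5 replicate 1 (0.85 against 0.67). In the other tested libraries a group held no more than 3 Bmp4 UMIs, so the call rests on E12.5 and low counts.

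Outside cardiomyocytes Bmp10 was near the erythroid level. In Cdh5-gated barcodes it was 0 to 1.29 CPM from E8.5 to E16.5, in Col1a1-gated 0 to 2.09 and in Upk3b-gated 0 to 0.97, against 0 to 2.09 in erythroid barcodes. Barcodes with 1 to 100 UMIs had 7.03 and 10.8 (E12.5), 5.43 and 6.96 (E14.5) and 14.03 and 11.9 (E16.5). At E8.5 ventricular-gated Bmp10 was at least 38.3-fold higher than in the Cdh5 gate, where no UMI was seen, with a floor of 3 counts over the group. At E14.5 cardiomyocytes as a whole were at least 8.45-fold above the Upk3b gate. At P3 the Cdh5 level of 4.86 (3.83 to 6.08) and the Col1a1 level of 4.86 stood beside 3.44 in erythroid barcodes.

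**Figure D2:**
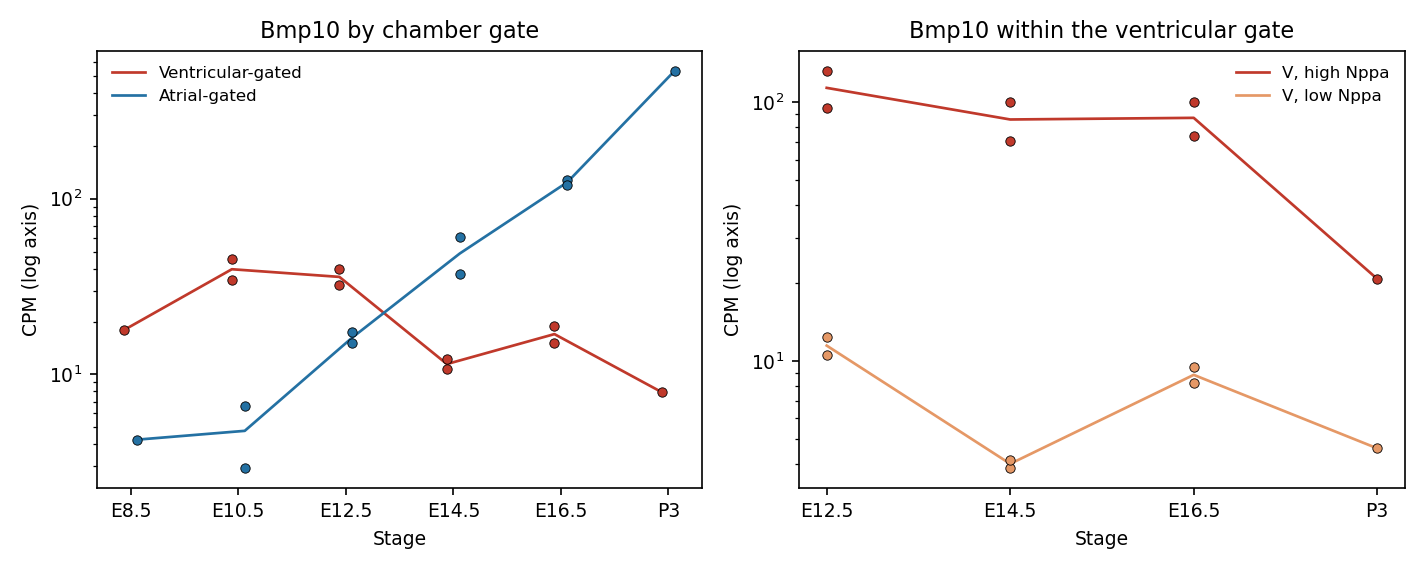
Bmp10 in CPM of the class on a log axis, by stage; points are libraries and lines join stage means. On the left, ventricular-gated barcodes lead until E12.5 and atrial-gated ones from E14.5, reaching 536 at P3. On the right, from E12.5 to P3, high-Nppa ventricular barcodes lie above low-Nppa ones.

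Bmp2 and Bmp4, the pair of ligands known for the atrioventricular canal, were higher in cardiomyocytes holding Tbx2, Tbx3 or Rspo3 than in those without. Tbx2 and Tbx3 encode repressors of the chamber programme in the canal and the conduction system, and Rspo3 is a Wnt agonist of the same region. The Bmp2 level in cardiomyocytes with at least 2 UMIs of these genes was 83.9 and 78.5 (E12.5), 83.3 and 70.2 (E14.5), and 76.9 and 99.5 (E16.5). In cardiomyocytes without any such UMI it was 1.97 and 2.18, 3.45 and 4.11, and 0.85 and 0.67. The mean log2 difference was 5.25 (SE 0.10, adjusted p = 2.01e-19), a 38.1-fold ratio, and the groups did not overlap at any stage. The levels without any such UMI were below those in barcodes with 1 to 100 UMIs of the same libraries, which ran from 1.69 to 9.25. Part of them may thus be background, and the size of the ratio is uncertain.

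Bmp4 was also higher in the barcodes with these genes. Its level was 127 and 112 (E12.5), 31.7 and 26.0 (E14.5), and 20.9 and 15.2 (E16.5), against 10.6 and 7.90, 1.96 and 4.08, and 0.67 and 0.30 in the other cardiomyocytes. The mean log2 difference was 3.84 (SE 0.28, adjusted p = 1.53e-09), or 14.3-fold. From E12.5 to E16.5 Bmp2 thus lay between 70.2 and 99.5 in these barcodes while Bmp4 was lower at each later stage, without a test of the steps. At P3 Bmp2 was 63.4 (54.5 to 73.4) and Bmp4 0.71 (0.09 to 2.56) in 1 matrix. The barcode suffixes differed there for Bmp2, with 52.2 from 117 barcodes and 160.7 from 21. At E10.5 Bmp2 was 144 and 180.4 and Bmp4 192 and 282.

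Of the 7 members tested in this contrast, 5 were higher, 2 were lower and all passed, with 34.1% of all genes called (15.9% higher and 18.3% lower). Bmp10 was 3.17 and 9.23 (E12.5), 1.73 and 1.69 (E14.5) and 2.99 and 8.65 (E16.5) in the canal-gene barcodes, and 35.8 and 42.1, 14.46 and 17.6, and 24.8 and 28.5 in the others. Its log2 difference was -2.93 (SE 0.20, adjusted p = 4.6e-10), opposite to that of Bmp2 and Bmp4. Outside the test, at P3, Bmp10 was 38.3 in the canal-gene barcodes against 96.5 in the others. By suffix these were 22.1 against 63.3 and 177.8 against 177.6, so that the second suffix showed no difference. In the tested contrast, Bmp5, Bmpr1a and Bmpr2 were higher by 0.59, 0.43 and 0.44. Bmp7 was lower by 0.21 (adjusted p = 0.00691), a call lost without E16.5 replicate 1 (adjusted p = 0.0694). The summed level of the 6 fibroblast markers moved with the contrast, at 86.7 to 400.2 CPM in these barcodes and 28.8 to 53.1 in the others. The smooth muscle and pericyte list did so too, at 155 to 724 against 24.1 to 416, and the part of both lists in the result was not tested. The smooth muscle sum need not stand for other cells, as described for Bmp4 below.

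**Figure D3:**
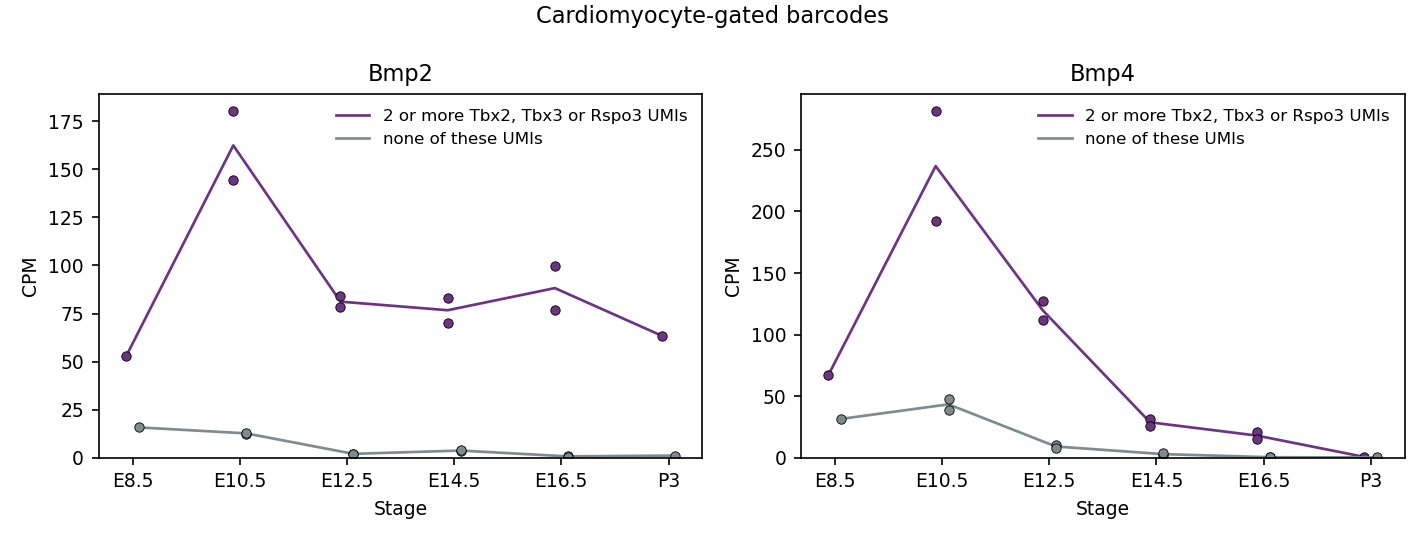
Bmp2 (left) and Bmp4 (right) in CPM on linear axes from 0, by stage, in cardiomyocytes with at least 2 UMIs of Tbx2, Tbx3 and Rspo3 together and in those with none; points are libraries and lines join means. Bmp2 stays between 52.8 and 180.4 in the first group at all stages, while Bmp4 drops from 282 at E10.5 to 0.71 at P3.

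The chamber difference of Bmp2 overlapped with the canal genes, and that of Bmp4 is given further below. Atrial-gated Bmp2 was 47.3 and 38.0 (E12.5), 61.9 and 41.4 (E14.5) and 15.5 and 14.97 (E16.5), and ventricular-gated Bmp2 5.99 and 8.54, 4.95 and 7.26, and 1.08 and 1.03. The log2 difference was 2.37, 3.05 and 3.71 (adjusted p = 3.42e-10, 3.42e-11 and 3.4e-09). When barcodes with a UMI of Tbx2, Tbx3 or Rspo3 were left out of both gates, an alternative chosen after seeing the data, it was 1.53, 0.91 and 2.66 (adjusted p = 0.000656, 0.034 and 6.37e-06), and the atrial level at E12.5 was 6.33 and 4.10. The values for Bmp2 thus came down by more than 1.5-fold at each stage, with the calls kept, and without E14.5 replicate 1 the E14.5 value was 2.44.

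The chamber difference of Bmp2 also changed with stage. The change of its atrial minus ventricular value from E12.5 to E16.5 was 1.34 (SE 0.39, adjusted p = 0.0218). The call was lost under 6 of the 18 other settings, most of which left the value close to that. These were the DESeq2 Wald test (1.32, adjusted p = 0.181), gate thresholds halved (1.14, 0.0573), no canal-gene barcodes (1.13, 0.143), and leaving out E16.5 replicate 1 (1.33, 0.179), E16.5 replicate 2 (1.32, 0.103) or E12.5 replicate 2 (0.89, 0.211). Bmp2 fell from E12.5 to E16.5 in both gates, by 2.63 in the ventricular (adjusted p = 1.41e-09) and by 1.29 in the atrial one (adjusted p = 0.000422). Without the canal-gene barcodes the atrial step was -0.39 (adjusted p = 0.524) and the ventricular step -1.52 (adjusted p = 1.56e-05). At E10.5 Bmp2 was 53.6 and 115 in the atrial and 18.4 and 47.5 in the ventricular gate, a difference that did not pass (1.19, adjusted p = 0.105) but did with the library as a replicate block, since both gates come from the same libraries (1.35, adjusted p = 0.00591). With the gate thresholds doubled the value turned to -0.23 (adjusted p = 0.905).

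Atrial-gated Bmp4 was 155 and 290.3 (E10.5), 94.1 and 115 (E12.5), 12.9 and 23.5 (E14.5), 5.59 and 1.43 (E16.5), and 0.39 at P3. Ventricular-gated Bmp4 was 5.01 and 7.73, 12.8 and 9.19, 3.89 and 3.98, 0.64 and 0.56, and 0.29. The atrial gate was above the ventricular one in all 8 tested libraries, with log2 differences of 5.04 (SE 0.50, adjusted p = 1.43e-07), 3.097 (adjusted p = 9.92e-14), 1.98 (SE 0.35, adjusted p = 7.4e-05) and 2.49 (SE 0.63, adjusted p = 0.00293) from E10.5 to E16.5. The E16.5 call was lost without replicate 1 of that stage (1.19, adjusted p = 0.572) and without the canal-gene barcodes (1.76, adjusted p = 0.181). The E16.5 levels of 0.56 to 5.59 lie near the 3.04 and 3.53 in barcodes with 1 to 100 UMIs, and erythroid barcodes held 1.65 and 0.33. At the earlier tested stages the ventricular levels lie below those in barcodes with 1 to 100 UMIs. These held 22.7 and 25.7 (E10.5), 19.0 and 22.3 (E12.5) and 7.64 and 7.76 (E14.5). The ventricular level of E10.5 replicate 1 rests on no more than 3 UMIs. Part of these levels may be background, and the size of the differences is uncertain. Bmp4 fell from E12.5 to E16.5 by 4.00 in the ventricular gate (SE 0.28, adjusted p = 2.9e-12) and by 4.60 in the atrial gate (SE 0.32, adjusted p = 1.26e-11). The sum of the 4 smooth muscle and pericyte markers went down over the same step. It went from 469 and 411 to 21.2 and 20.9 CPM in the ventricular and from 289 and 272 to 133 and 128 in the atrial gate. The epicardial list went from 83.7 and 74.0 to 29.8 and 29.7 in the ventricular gate. The part of both lists in the falls of Bmp4, Bmp2, Bmp5 and Bmp7 was not tested. The smooth muscle sum need not stand for other cells. In ventricular-gated barcodes of E10.5 replicate 2 without Tbx2, Tbx3 or Rspo3 UMIs, it was 679 CPM with 3 of its 4 genes at 0. Barcodes of that library in no gate held 21.2. Between chambers, the smooth muscle list was thus lower in the atrial gate at E12.5 and higher at E16.5. The endothelial list was higher there at E16.5, at 30.3 and 28.0 CPM against 11.6 and 11.0. At E14.5 the fibroblast list was 35.7 and 148.9 in the atrial and 56.8 and 43.4 in the ventricular gate. The part of these lists in the chamber differences of Bmp4 was not tested. The ventricular step was -3.19 without the canal-gene barcodes and the atrial step -6.03 without E16.5 replicate 1.

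From E14.5 on Bmp4 was highest in the mesothelial and mesenchymal gates, while at E12.5 these overlapped with the atrial gate. In Upk3b-gated barcodes its level was 97.4 and 109 (E12.5), 113 and 110.4 (E14.5), and 79.7 and 72.4 (E16.5). In Col1a1-gated barcodes it was 95.2 and 136, 69.0 and 60.8, and 35.4 and 31.0. Cdh5-gated barcodes held 8.26 and 9.52, 9.13 and 18.6, and 17.9 and 14.8. Averaged over E12.5 to E16.5 and set against the mean of the other classes, Bmp4 was higher by 2.502 in the Upk3b gate (SE 0.13, adjusted p = 2.9e-17, 5.66-fold) and by 1.65 in the Col1a1 gate (SE 0.11, adjusted p = 3.62e-14), and lower by 1.32 in the Cdh5 gate (adjusted p = 3.66e-13). In cardiomyocytes as a whole, most of them ventricular-gated, the log2 difference was -2.83 (SE 0.10, adjusted p = 3.64e-23). At P3 the Upk3b level was 52.0 (32.6 to 78.8) from 21 barcodes and the Col1a1 level 56.4 (52.8 to 60.1).

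The stage step of Bmp4 differed in sign among these gates, without a test of that difference. From E12.5 to E16.5 it fell by 1.59 in the Col1a1 gate (SE 0.24, adjusted p = 5.9e-06), a call lost with the gate thresholds doubled (adjusted p = 0.619) and without E12.5 replicate 2 (adjusted p = 0.135), which leaves 28 barcodes at that stage. The cardiomyocyte marker list stood at 851 and 568 CPM in the Col1a1 gate at E12.5 and 253 to 313 afterwards. In the Cdh5 gate Bmp4 rose by 0.79 (SE 0.22, adjusted p = 0.00469), a call lost without E16.5 replicate 1 (0.57, adjusted p = 0.179). In the Upk3b gate it did not pass (-0.51, adjusted p = 0.111).

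Inside the Cdh5 gate Bmp4 was higher from E12.5 to E16.5 in barcodes without Npr3, the natriuretic peptide clearance receptor that marks endocardium. Its level was 19.99 and 27.7 (E12.5), 14.52 and 26.2 (E14.5) and 26.8 and 22.7 (E16.5) in Cdh5-gated barcodes without an Npr3 UMI. With at least 2 Npr3 UMIs it was 4.55 and 4.39, 1.77 and 4.20, and 5.19 and 1.14. The Npr3 group was lower in all 6 libraries, with a log2 difference of -2.77 (SE 0.21, adjusted p = 1.28e-09), or 6.81-fold. Within each group the E12.5 and E16.5 levels overlapped, although Bmp4 rose in the whole gate over that step. Barcodes with at least 2 Npr3 UMIs went from 449 and 550 of 735 and 890 to 175 and 137 of 389 and 325. The part of that change in the rise was not tested. At the stages outside the test the values were closer, with 11.8 and 11.1 with Npr3 against 16.4 and 21.9 without (E10.5), and 13.1 against 22.9 at P3. Of 5 members tested, 2 were higher with Npr3 (Bmpr1a and Bmpr2), 2 lower (Bmp2 and Bmp4) and 1 did not pass, with 47.5% of all genes called (22.1% higher and 25.4% lower). Bmp2 was at 0 to 2.66 CPM with Npr3 and 2.22 to 7.14 without, beside 0 to 2.18 in erythroid barcodes of these libraries and 1.69 to 9.25 in those with 1 to 100 UMIs. It was lower with Npr3 in 5 of the 6 libraries, not in E14.5 replicate 1 (2.66 against 2.22). The log2 difference of -1.46 (adjusted p = 0.00563) was lost without E14.5 replicate 2 (adjusted p = 0.0664) and read -2.24 without E14.5 replicate 1 and -3.14 without E16.5 replicate 1. The 3 endocardial markers, Npr3 among them, summed to 400.1 to 796 CPM with Npr3 and 69.3 to 182 without.

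Bmp2 was also a ligand of the Col1a1 gate. Its level there was 36.9 and 61.8 (E12.5), 21.5 and 21.0 (E14.5), and 4.43 and 7.04 (E16.5), higher than the mean of the other classes by 1.84 (SE 0.18, adjusted p = 1.87e-10). It fell by 3.01 from E12.5 to E16.5 (SE 0.33, adjusted p = 2.74e-08), with -2.34 without E12.5 replicate 2. In the Cdh5 gate it was 1.93 to 3.79 over these stages, beside 0 to 2.18 in erythroid barcodes, and lower than the other classes by 1.58 (adjusted p = 4.05e-07), and 14.7 at P3. In the Upk3b gate it did not pass (-0.69, adjusted p = 0.0795). In cardiomyocytes it was higher by 0.43 (adjusted p = 0.00475), a call lost without E14.5 replicate 1 (0.33). The mean of the other classes is one of log2 values and includes the low Cdh5 gate. That call does not place cardiomyocytes above each class. At E16.5 Bmp2 was 1.08 and 1.03 in the ventricular gate, which holds most cardiomyocytes, below both libraries of the Col1a1 gate. It was 15.5 and 14.97 in the atrial gate.

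Bmp7, which is known to act with Bmp5 and Bmp6 redundantly in the heart, was a cardiomyocyte ligand from E12.5 to E16.5, where classes were compared. Ventricular-gated levels were 105 and 85.1 (E10.5), 91.6 and 99.7 (E12.5), 92.4 and 93.9 (E14.5), 48.0 and 48.2 (E16.5), and 20.7 at P3. Atrial-gated levels were 88.1 and 96.8, 92.9 and 101, 89.2 and 81.2, 40.2 and 40.4, and 8.89. The Cdh5 and Col1a1 gates held 0.59 to 3.07 from E12.5 to E16.5, near the 2.26 to 5.70 of erythroid barcodes. Against the mean of the other classes, cardiomyocytes were higher by 5.14 (SE 0.10, adjusted p = 1.29e-30), a 35.3-fold ratio that read 6.17 on the log2 scale without E16.5 replicate 1 and 4.47 with the gate thresholds doubled. The Cdh5 and Col1a1 gates were lower by 2.17 and 2.54 (adjusted p = 5.9e-06 and 3.02e-07), and both calls were lost without E16.5 replicate 1 (-0.82 and -1.50, adjusted p = 1 in each). In the Upk3b gate the value of -0.44 did not pass, and without that library it was -3.85 (adjusted p = 0.00616). The other E16.5 library held no Bmp7 UMI in the Upk3b gate, so that these values rest on a group at 0 and are no bound. With the thresholds doubled the Col1a1 value was -1.81.

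Bmp7 fell from E12.5 to E16.5 in both chambers, by 0.84 in the ventricular gate (SE 0.07, adjusted p = 8.97e-11) and by 1.08 in the atrial gate (SE 0.10, adjusted p = 2.05e-09). From E10.5 to E16.5 the chambers differed by 0.39 or less on the log2 scale. The atrial level was lower by 0.24 at E14.5 (adjusted p = 0.0358), which was lost under 15 of the 18 other settings, and by 0.39 at E16.5 (adjusted p = 0.00167), which was lost without either library of that stage (adjusted p = 0.0581 and 0.0587). At P3, without a test, it was 8.89 against 20.7. High-Nppa ventricular barcodes had 110.4 and 114 (E12.5), 109 and 104 (E14.5) and 58.7 and 50.6 (E16.5), against 85.0 and 96.2, 90.2 and 92.4, and 47.0 and 47.7. The difference of 0.19 (adjusted p = 0.0071) was lost without E14.5 replicate 1 (0.0575) or E16.5 replicate 1 (0.0921). Barcodes with 1 to 100 UMIs held 6.36 (E8.5), 13.6 and 6.71 (E10.5), 39.1 to 49.5 over E12.5 and E14.5, and 25.9 and 25.2 (E16.5).

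**Figure D4:**
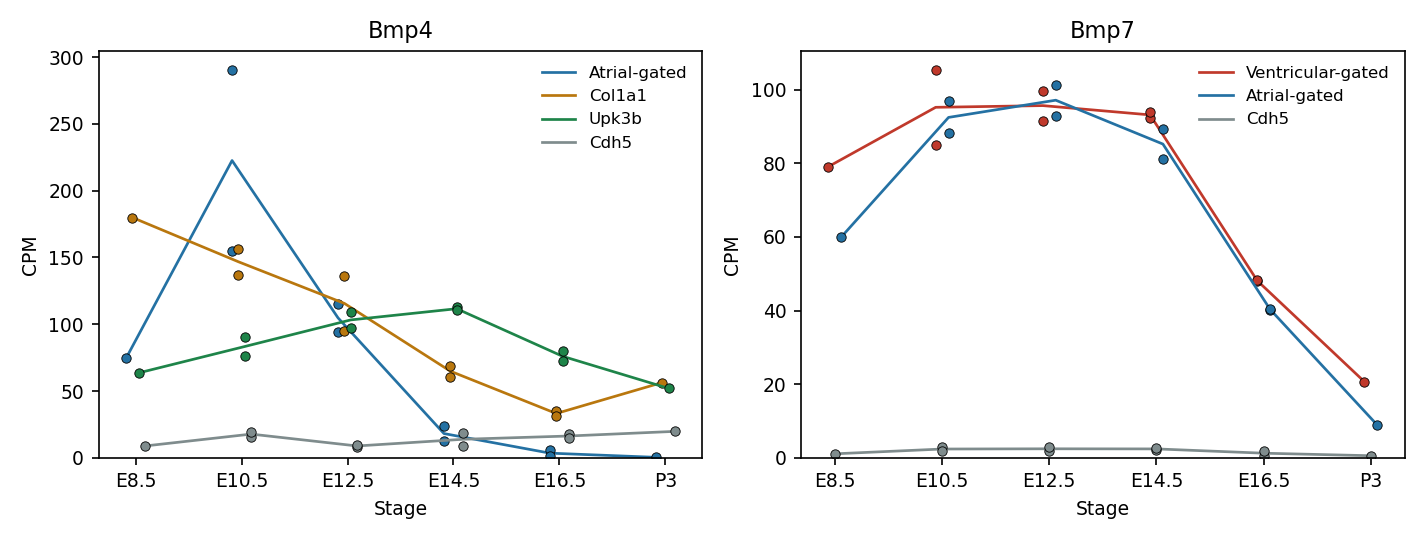
Bmp4 (left) in atrial-gated, Col1a1, Upk3b and Cdh5 barcodes and Bmp7 (right) in ventricular-gated, atrial-gated and Cdh5 barcodes, in CPM by stage; points are libraries and lines join means. Atrial Bmp4 drops below the Upk3b and Col1a1 gates by E14.5, and Bmp7 is near 0 in the Cdh5 gate at every stage.

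Bmp5 was a cardiomyocyte ligand with a higher atrial than ventricular level from E12.5 on. Its ventricular level was 31.8 and 26.5 (E10.5), 13.03 and 12.8 (E12.5), 8.43 and 8.07 (E14.5), 5.57 and 4.65 (E16.5), and 2.102 at P3. Its atrial level was 24.2 and 19.6, 23.6 and 22.6, 15.97 and 17.1, 13.4 and 17.1, and 9.51. The ventricular libraries were the higher ones at E10.5, where the difference did not pass (-0.35, adjusted p = 0.651) and was 0.31 with the gate thresholds doubled, and the atrial ones from E12.5 on, by 0.67, 0.87 and 1.41 (adjusted p = 4.97e-05, 0.000153 and 3.7e-08). The change from E12.5 to E16.5 was 0.74 (SE 0.19, adjusted p = 0.00753), lost without E16.5 replicate 2 (0.44, adjusted p = 0.297).

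Bmp5 fell by 1.17 in the ventricular gate from E12.5 to E16.5 (SE 0.10, adjusted p = 6.37e-11). In the atrial gate the fall of 0.43 (adjusted p = 0.0401) was lost under the mitochondrial ceilings (adjusted p = 0.353) and without single libraries (adjusted p from 0.0564 to 0.392). In the ventricular gate, high minus low Nppa gave a log2 difference of -0.53 (SE 0.13, adjusted p = 0.00226). At E16.5 no Bmp5 UMI was seen in the Cdh5 gate, so that the ventricular gate was at least 19.8-fold and the atrial gate at least 57.3-fold higher. Bmp6 was at 2.04 CPM or less in every class and library, was left out of every fit by its low counts, and had 0 UMIs in ventricular-gated barcodes at P3, where the Cdh5 gate held 0.57 (0.26 to 1.09). That is below the 0.86 CPM that a count of 0 allows in erythroid barcodes of P3.

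The receptors were found in every class. Bmpr1a, the type I receptor, was 42.9 and 47.0 (E12.5), 59.8 and 57.5 (E14.5), and 50.6 and 50.5 (E16.5) in cardiomyocytes, and 50.5 and 52.4, 87.5 and 80.4, and 59.3 and 56.5 in the Upk3b gate. The Col1a1 gate held 39.9 and 41.9, 61.1 and 53.4, and 37.5 and 37.3. The Cdh5 gate was the lowest at E14.5 and E16.5, with 38.2 and 43.4, 29.1 and 24.2, and 24.7 and 25.9. Against the mean of the other classes, Bmpr1a was higher by 0.47 in cardiomyocytes (SE 0.05, adjusted p = 9.08e-11) and by 0.54 in the Upk3b gate (SE 0.08, adjusted p = 5.1e-07), and lower by 0.78 in the Cdh5 gate (SE 0.06, adjusted p = 1.31e-13). The lower value of 0.22 in the Col1a1 gate (adjusted p = 0.0198) turned to 0.03 with the gate thresholds doubled, and the call was lost under 6 further settings (adjusted p from 0.0516 to 0.121). Erythroid barcodes held 2.36 to 6.18 in embryonic libraries.

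Bmpr2, the type II receptor, was highest in the Cdh5 gate at E16.5 and P3, where the atrial gate came next with 45.1 and 44.9 (E16.5) and 73.1 (P3). The Cdh5 gate held 38.6 and 39.2 (E12.5), 48.2 and 46.7 (E14.5), 57.8 and 66.5 (E16.5) and 83.5 at P3. Cardiomyocytes held 29.0 and 31.8, 37.1 and 35.7, 33.9 and 33.0, and 49.9. The Cdh5 gate was higher than the mean of the other classes by 0.57 (SE 0.06, adjusted p = 1.58e-10) and the Upk3b gate lower by 0.48 (SE 0.10, adjusted p = 9.63e-05). Cardiomyocytes and the Col1a1 gate did not pass (0.09 and -0.19, adjusted p = 0.122 and 0.0853), and both did with the gate thresholds halved (0.14 and -0.35, adjusted p = 0.0106 and 1.4e-05).

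Inside the Cdh5 gate the receptors parted by Npr3. Bmpr1a was 42.6 and 46.3 (E12.5), 48.8 and 37.8 (E14.5), and 53.4 and 57.1 (E16.5) with Npr3, and 25.0 and 34.2, 11.8 and 13.1, and 4.28 and 5.31 without. Its log2 difference was 1.92 (SE 0.11, adjusted p = 1.44e-11), a 3.78-fold ratio, and the groups did not overlap at any stage. The distance grew with stage in the means, from the lowest at E12.5 to the highest at E16.5, which was not tested. Bmpr2 was 38.4 and 41.5, 61.5 and 59.8, and 83.4 and 89.1 with Npr3 and 39.0 and 34.8, 35.5 and 40.1, and 39.4 and 48.5 without, a log2 difference of 0.53 (SE 0.08, adjusted p = 7.7e-06). The 2 groups of Bmpr2 overlapped at E12.5 and parted afterwards. At P3 Bmpr1a was 77.1 (68.9 to 86.0) with Npr3 and 8.02 (6.39 to 9.94) without. The fibroblast marker list moved with the contrast from E14.5 on, at 262 to 445 CPM with Npr3 and 90.2 to 117 without, and its part was not tested.

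The whole Cdh5 gate changed from E12.5 to E16.5 by -0.80 for Bmpr1a (SE 0.11, adjusted p = 3.35e-07) and 0.56 for Bmpr2 (SE 0.10, adjusted p = 1.8e-05). Over the same step the barcodes with at least 2 Npr3 UMIs went from 449 and 550 of 735 and 890 to 175 and 137 of 389 and 325. Of 6 members tested in this step, 2 were higher (Bmp4 and Bmpr2), 2 lower (Bmp7 and Bmpr1a) and 2 did not pass, with 39.9% of all genes called (19% higher and 20.9% lower). The fall of Bmp7 by 1.24 (adjusted p = 0.0278) was lost without E12.5 replicate 2 (adjusted p = 0.177) and without E16.5 replicate 1 (-0.52, adjusted p = 0.47), and was -2.18 without E16.5 replicate 2. Its levels were 2.97 or less.

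Between the chambers the receptors differed by 0.52 or less on the log2 scale from E10.5 to E16.5. Bmpr2 was 44.4 and 46.3 in the atrial and 26.7 and 29.5 in the ventricular gate at E12.5, 47.9 and 46.2 against 35.9 and 34.8 (E14.5), and 45.1 and 44.9 against 32.9 and 31.9 (E16.5). The atrial level was higher by 0.52 (SE 0.08, adjusted p = 1.68e-05), 0.30 (adjusted p = 0.0176) and 0.34 (adjusted p = 0.00324), of which the E14.5 call was lost under 5 other settings and the E16.5 call without either library of that stage (adjusted p = 0.0852 and 0.0762). Bmpr1a was lower in the atrial gate by 0.29 at E14.5 (adjusted p = 0.0312) and by 0.26 at E16.5 (adjusted p = 0.0402), lost under 6 and 8 other settings. From E12.5 to E16.5 both receptors rose by 0.36 in the ventricular gate (adjusted p = 0.000174 for Bmpr1a and 4.71e-05 for Bmpr2), and neither passed in the atrial gate (0.08 and 0.18, adjusted p = 0.621 and 0.201). Without the canal-gene barcodes Bmpr2 passed there too (0.33, adjusted p = 0.0366), and with all barcodes its change of the chamber difference did not pass (-0.18, adjusted p = 0.372).

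**Figure D5:**
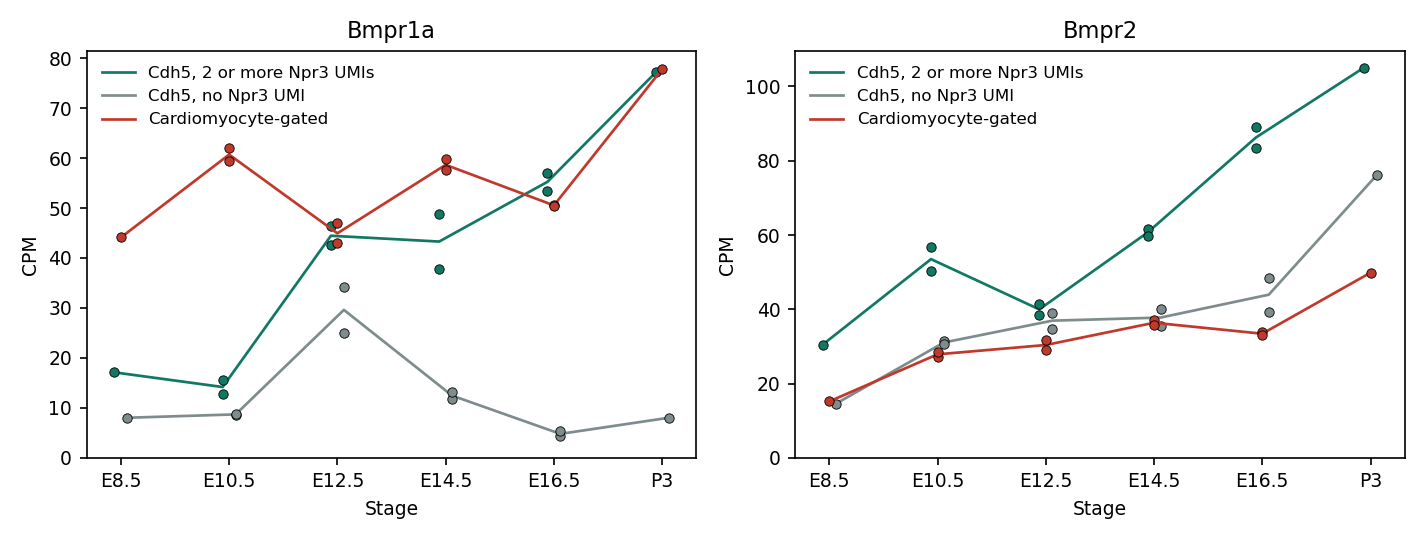
Bmpr1a (left) and Bmpr2 (right) in CPM by stage in Cdh5 barcodes with at least 2 Npr3 UMIs, Cdh5 barcodes with none, and cardiomyocytes; points are libraries and lines join means. Bmpr1a without Npr3 falls to between 4.28 and 5.31 (E16.5), and Bmpr2 with Npr3 rises to 105 at P3.

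Between classes, 5 members could be given a fold at all, since Bmp5 and Bmp10 had classes without a UMI and Bmp6 was too low. Of these 5, cardiomyocytes had 3 higher and 1 lower (72.9% of all genes called, 42.7% up and 30.2% down), and the Cdh5 gate 1 higher and 4 lower (63.2% of all genes called, 34.3% up and 28.9% down). The Col1a1 gate had 2 higher and 2 lower (44.2% of all genes called, 21.1% up and 23.1% down), and the Upk3b gate 2 higher and 1 lower (48% of all genes called, 22.6% up and 25.4% down). In the step from E12.5 to E16.5, the Col1a1 gate had 2 of 5 members lower (Bmp2 and Bmp4, with 14.4% of all genes called, 8.87% up and 5.57% down). The Upk3b gate had 0 of 4 in either direction by edgeR's quasi-likelihood test and by the DESeq2 Wald test (22.6% of all genes called, 11% up and 11.6% down, by edgeR). Nearest to passing in edgeR were Bmp4 (unadjusted p = 0.0318, adjusted p = 0.111) and Bmp2 (unadjusted p = 0.0477, adjusted p = 0.149). Bmp2 passed without E12.5 replicate 1 (-1.68, adjusted p = 0.0249) and Bmp4 with no filter on low counts (-0.46, adjusted p = 0.038).

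At E16.5 Bmp10 was highest in the atrial gate, then the ventricular gate, with the Cdh5, Col1a1 and Upk3b gates together at 0 to 1.29. Bmp5 had the same order, with 0 to 1.17 in those 3 gates. Bmp7 ran from the ventricular gate (48.0 and 48.2) to the atrial gate (40.2 and 40.4), and its Upk3b values of 12.6 and 0 overlapped the Col1a1 and Cdh5 gates. Bmp2 was highest in the atrial gate (15.5 and 14.97), followed by the Col1a1 and Upk3b gates, which overlapped (4.43 and 7.04, 3.89 and 4.52), then the Cdh5 gate and the ventricular gate. Bmp4 ran from the Upk3b gate (79.7 and 72.4) through the Col1a1, Cdh5 and atrial gates to the ventricular gate (0.64 and 0.56) with no overlap between neighbours. For Bmpr1a the Upk3b gate (59.3 and 56.5) led, and the ventricular and atrial gates overlapped (51.5 and 50.4, 42.7 and 51.6) above the Col1a1 and Cdh5 gates. For Bmpr2 the Cdh5 gate led, followed by the atrial gate, while the Upk3b values of 33.0 and 22.6 covered those of the ventricular and Col1a1 gates.

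The rest of the pathway was followed in 42 listed genes, comprising other receptors and co-receptors, other ligands, secreted antagonists, Smads and targets. Counts below cover the genes that passed the filter on low counts and had counts in both groups. In cardiomyocytes with canal genes, 21 of 30 were higher, 2 lower and 7 did not pass (15.9% of all genes higher and 18.3% lower), with a median log2 difference of 0.55 against -0.02 over all genes tested. All 6 Smads were higher, 6 of 7 antagonists, and 7 of 9 targets. The largest rises were those of Msx2 (3.31), a homeobox target of BMP, Smoc2 (3.07), a matrix protein counted here with the antagonists, and Bmper (2.65), a BMP-binding secreted protein. Hey2, the ventricular Notch target, and Hfe2, a BMP co-receptor, fell by 1.16 and 0.48. Tbx2 had chosen the barcodes and was not counted.

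Between chambers, 4 of 29 listed genes were higher and 2 lower in the atrial gate at E10.5 (median 0.35 against 0.01 over all genes), 17 of 32 higher and 1 lower at E12.5 (0.41 against -0.02), 16 of 31 and 2 at E14.5 (0.56 against -0.03), and 16 of 29 and 2 at E16.5 (0.53 against -0.03). Of all genes, 1.8%, 16.4%, 14.3% and 15.9% were higher at these stages and 1.53%, 19.3%, 16.6% and 17.8% lower. Hey1, a Notch and BMP target of the atria, was higher by 2.82, 3.24, 3.31 and 2.74 at these stages. Hey2 was lower by 3.91, 4.74, 5.92 and 6.26. Fst, the gene of the secreted inhibitor follistatin, was higher by 4.14, 3.03 and 3.77 from E12.5 to E16.5, and Smoc2 by 4.58 (E12.5) and 2.14 (E14.5). Id1 and Id3, direct Smad targets, were higher by 1.43 and 1.42 (E10.5), and Tbx2 by 2.78 at E16.5. Further genes lower in the atrial gate were Fstl1 at E10.5 (-0.51), Twsg1 at E14.5 (-0.37), and Rgma at E16.5 (-1.47). Marker sums of other cells differed between the gates too, and their part in these counts was not tested. The endothelial sum was 50.8 and 47.4 CPM in the atrial and 23.6 and 21.3 in the ventricular gate at E12.5. At E10.5 the endothelial sums (58.7 and 41.05 against 40.1 and 45.3) overlapped. The fibroblast sums there (25.0 and 52.8 against 1.67 and 29.8) overlapped as well. The change from E12.5 to E16.5 passed for 8 of 32 (12.8% of all genes), with Nog (2.28), Tbx2 (1.56) and Hfe2 (0.86) up and Id4 (-4.65), Hey2 (-1.52) and Smad4 (-0.89) down, at a median of -0.10 against -0.01.

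With stage, more listed genes were lower than higher in cardiomyocytes, beside the falls of the smooth muscle and epicardial marker sums given for Bmp4, whose part here was not tested. From E12.5 to E16.5, 20 of 32 were lower and 8 higher in the ventricular gate (median -0.92 against 0.01, with 30.8% of all genes lower and 32.2% higher), led by Fst (-3.42), Msx1 (-3.14) and the BMP inhibitor Nog (-3.13), with Rgma (2.79), Hey2 (0.81) and Hfe2 (0.61) higher. In the atrial gate 12 of 29 were lower and 3 higher (median -0.60 against 0.02, with 11.1% of all genes lower and 15.5% higher), led by Fst (-3.78), Msx2 (-2.98) and Id2 (-1.64), with Hfe2 (1.47), Twsg1 (0.41) and Tbx20 (0.35) higher. Targets were lower in 8 of 10 cases in the ventricular and 6 of 8 in the atrial gate.

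The other gates gave mixed counts in that step. In the Cdh5 gate 12 of 30 were higher and 8 lower (median 0.19 against -0.02, with 19% of all genes higher and 20.9% lower), with Tbx2 (2.82), the endothelial receptor Acvrl1 (2.61) and Nog (1.61) up and Fst (-3.44), Bmper (-2.79) and Tbx20 (-2.11) down. In the Col1a1 gate 3 of 30 were higher, Acvrl1 (3.92), Smoc2 (2.76) and Hey1 (1.32), and 7 lower, led by Nog (-3.10), Smad6 (-1.79) and Id2 (-1.47) (median -0.28 against 0.10, with 8.87% of all genes higher and 5.57% lower). In the Upk3b gate 9 of 31 were higher and 8 lower (median -0.26 against -0.09, with 11% of all genes higher and 11.6% lower), with the inhibitors Chrd (4.13) and Chrdl1 (2.97) and Acvrl1 (2.84) up and Hey1 (-3.67), Id2 (-2.14) and Acvr2b (-1.98) down.

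Among classes, 4 of 5 antagonists were lower in cardiomyocytes, 3 of 5 were lower in the Cdh5 gate, 3 of 5 were higher and 2 lower in the Upk3b gate, and 5 of 5 were higher in the Col1a1 gate. Of 27 listed genes, cardiomyocytes had 6 higher and 18 lower (median -0.62 against 0.09, with 42.7% of all genes higher and 30.2% lower), with Hey2 (2.93), Tbx20 (1.78) and Tbx2 (0.68) up and Acvrl1 (-5.15), Id3 (-4.36) and Id1 (-4.08) down. The Col1a1 gate had 20 higher and 3 lower (median 1.13 against -0.07, with 21.1% of all genes higher and 23.1% lower), including 7 of 8 targets, led by Tbx20 (2.42), Id4 (2.15) and Acvrl1 (2.14), with Hey2 (-1.37), Acvr2b (-0.99) and Acvr2a (-0.78) down. The Cdh5 gate had 12 higher and 10 lower (median 0.07 against 0.02, with 34.3% of all genes higher and 28.9% lower), with Eng (5.17), the co-receptor of Acvrl1 in endothelium, Acvrl1 itself (2.43) and Hey1 (1.99) up and Bmper (-2.54), Tbx2 (-2.38) and Tbx20 (-2.34) down. The Upk3b gate had 10 each way (median -0.20 against -0.10, with 22.6% of all genes higher and 25.4% lower), with Id4 (2.06), Neo1 (1.86) and Rgma (1.56) up and Eng (-2.84), Fst (-2.44) and Tbx20 (-1.86) down.

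In high-Nppa ventricular barcodes, 4 of 31 listed genes were higher and 9 lower (median -0.05 against -0.04), with 14.6% of all genes higher and 18.5% lower. Of 10 targets tested 6 were lower. Smoc2 (1.99), Hfe2 (1.79) and Neo1 (0.28) were higher and Bmper (-1.51), Hey2 (-1.23) and Hey1 (-0.96) lower. In Npr3 barcodes of the Cdh5 gate 9 of 24 were higher and 10 lower (median -0.13 against -0.00, with 22.1% of all genes higher and 25.4% lower), with Smoc1 (3.59), Id2 (1.82) and the type I receptor Acvr1 (1.03) up and Fst (-1.93), Msx1 (-1.78) and Hey2 (-1.63) down, and 6 of 7 targets were lower.

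For a description of likeness, the log2 levels were correlated over the 40 sums of 5 classes in the 8 libraries from E10.5 to E16.5, among 11167 genes that reached 10 CPM. The sums share libraries, depths and the class structure, so the values have no p. The genes closest to Bmp10 were Mlip (Pearson r 0.94), Hfe2 (0.93) and Hspb3 (0.93), and those closest to Bmp7 were Homer2, Tecrl and Mettl22 (0.95 each). Bmp5 was closest to Homer2 (0.91), Ube3a (0.90) and Prkab2 (0.90). Bmp2 was closest to B3galnt1 (0.84), Prrx2 (0.83) and Atat1 (0.81), and Bmp4 to 6330403K07Rik (0.86), Bcar3 (0.85) and Id4 (0.85). The receptors were closest to Dnmt3a (0.80), Gata4 (0.79) and Mat2b (0.78) for Bmpr1a and Sema6d (0.82), Arhgap31 (0.80) and Akap13 (0.76) for Bmpr2. Bmp6 did not reach the minimum.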

How the data were processed

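Single-cell 3′ RNA libraries of wild-type C57Bl/6J mouse embryos and hearts were analysed from 10 matrices, which cover the 13 sample records except E8.5 replicate 1, not analysed here. E16.5 replicate 1 and P3 pool records. The deposited values are UMI counts, whole numbers for each gene in each barcode, which the authors had not normalized. The submitters' processing notes name Cell Ranger 2.1.1, Seurat 3.1.1 and mm10. The labels and the study's methods name different enzymes and kit versions. Embryonic matrices list 737280 barcodes, the P3 matrix 10964 filtered ones. The members, gene lists and tests were chosen with earlier results of these data known.

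Barcodes with at least 2000 UMIs were gated by marker genes, and those in more than 1 gate were left out, except that Upk3b with Col1a1 counted as Upk3b. No doublet caller was run. Counts were summed per library and class and tested with edgeR 4.0.16 (quasi-likelihood test, TMM, filterByExpr, R 4.3.3) with p-values adjusted by Benjamini-Hochberg over every gene tested and a threshold of 0.05, in 5 fits of 12 to 24 sums, tested on simulated data. DESeq2 1.42.0 was an alternative, beside other UMI minima, gates, filters, mitochondrial ceilings and left-out libraries. Named genes were all 8 members, and of the pathway list the 3 with the largest rise and the 3 with the largest fall among those called. Sums of 1 library in 2 classes share that library, and their deviations from the group means correlated at -0.016 to 0.217 across genes.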

Additional observations from a re-analysis of the deposited data

Results flagged for a closer look

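The difference between atrial-gated and ventricular-gated barcodes changed from E12.5 to E16.5 for 3 of 7 members tested, as a term of the edgeR fit, with 12.8% of all genes called (7.27% higher and 5.52% lower). The atrial minus ventricular log2 difference moved by 4.08 for Bmp10, turning from a higher ventricular to a higher atrial level. It moved by 1.34 for Bmp2 and by 0.74 for Bmp5, which were higher in the atrial gate at both stages. The Bmp2 call was lost under 6 of the 18 other settings, and the Bmp5 call without E16.5 replicate 2 (0.44, adjusted p = 0.297).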

How the results depend on the processing

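Of 74 called member values, 50 kept direction and call under every setting run. Over all settings, 1141 values of the called results stayed, 75 lost the call and 2 turned. The 2 were Bmp10 from E12.5 to E16.5 in the ventricular gate (0.41 under the mitochondrial ceilings) and Bmpr1a in the Col1a1 gate (0.0279 with thresholds doubled). Where 1 library of a stage was left out, the other was assumed to vary like the remaining groups. Values that did not pass and turned were, with thresholds doubled, Bmp2 (-0.23), Bmp5 (0.31) and Bmp7 (0.0495) between chambers at E10.5, Bmp2 in the Cdh5 step (0.0866), and Bmp7 (-1.60), Bmpr1a (-0.39) and Bmpr2 (0.0823) in the Col1a1 step. With thresholds halved they were Bmp7 (-0.10) and Bmpr1a (-0.0698) in the Col1a1 step and Bmp7 with Npr3 (0.11). Bmp7 between chambers at E10.5 also turned with the DESeq2 Wald test (0.0046), DESeq2 size factors (0.0043), a minimum of 1000 (0.0395) or 4000 UMIs (0.0074), the ceilings (0.0512) and without canal-gene barcodes (0.32). Bmp2 in the Cdh5 step was 0.0244 with the Wald test and 0.0257 with DESeq2 size factors, and Bmpr2 with high Nppa was -0.0606 under the ceilings. The cause was not tested.

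Leaving out 1 library at a time also turned values that had not passed. Between chambers at E10.5 these ran from -0.1512 to 0.1643 (Bmp7), -0.3626 to 0.1227 (Bmpr1a) and -0.0913 to 0.3342 (Bmpr2), and for Bmpr1a from -0.0329 to 0.1358 at E12.5. In the step from E12.5 to E16.5 they ran from -0.042 to 0.2038 (Bmpr1a, atrial gate), -0.5715 to 0.3389 (Bmp2, Cdh5 gate), -1.932 to 0.1262 (Bmp10, Cdh5 gate), -0.1084 to 1.2898 (Bmp7, Col1a1 gate), -0.0184 to 0.1601 (Bmpr1a, Upk3b gate) and -0.1036 to 0.5456 (Bmpr2, Upk3b gate). Bmp7 with Npr3 ran from -0.4393 to 0.2737. The genes called between chambers ranged over 216 to 388 at E10.5 (408 with all libraries), 2712 to 4628 at E12.5 (4375), 1515 to 3914 at E14.5 (3787), 2383 to 4405 at E16.5 (4126) and 772 to 1845 for the change between E12.5 and E16.5 (1567), and were lowest without a library of the stage itself, for that change without E16.5 replicate 1. In the step from E12.5 to E16.5 they ranged over 2079 to 3532 in the atrial gate (3255, lowest without E16.5 replicate 1), 763 to 1884 in the Col1a1 gate (1973, lowest without E12.5 replicate 2) and 1119 to 2834 in the Upk3b gate (3093, lowest without E16.5 replicate 1).

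Genes called between chambers at E10.5 numbered 709 with thresholds halved, 68 with thresholds doubled and 221 under the ceilings. The Col1a1 class had 2461 instead of 6033 with thresholds doubled, the Col1a1 step 4237 with thresholds halved and 364 doubled, and the Nppa contrast 2870 instead of 4399 under the ceilings. The share of calls that were higher went from 48.6% to 60.4% with DESeq2 size factors and 64.8% with the Wald test in the Upk3b step, from 58.6% to 47.8% in cardiomyocytes and from 61.4% to 47.1% in the Col1a1 step with the Wald test. With thresholds doubled, Bmp4 between chambers at E10.5 read 15.08 against a ventricular group without a UMI, which is no bound. With a replicate block, Bmp2 between chambers at E10.5 passed (1.35, adjusted p = 0.00591), and no other member call changed. Values that had not passed did so 13 times under other settings, among them Bmp2 between chambers at E10.5 with thresholds halved (1.63) or no filter on low counts (1.18), Bmp7 between chambers at E12.5 under the ceilings (-0.27), and Bmp2 in the Upk3b gate with thresholds halved (-0.72), no filter (-0.71) or without E12.5 replicate 2 (-0.77). Sums of 1 class at 2 stages with the same replicate number correlated at -0.0333 to 0.114, so the number was not taken to pair stages. Depth limits the small gates at E8.5 and E10.5, Bmp6, and the Upk3b gate at E16.5 and P3.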
